A study of Mus musculus with 24 samples.

Results

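The sodium pump beta subunit gene Atp1b1 and the FXYD genes Fxyd2, Fxyd4 and Fxyd5, which encode small membrane proteins that bind and tune the pump, were followed in mouse kidney. Their identifiers in the table are ENSMUSG00000026576, ENSMUSG00000059412, ENSMUSG00000004988 and ENSMUSG00000009687. They are 4 of the 56748 gene identifiers in the table and were chosen by name, with earlier results of these data known. All 4 passed the filter on low values. Poly A RNA was sequenced from kidneys of female and male mice, collected midway through either the active or the inactive period. The 4 groups of sex and period held 6 libraries each. The labels call the RNA deidentified, and the sources used here give no strain, age, clock time or treatment. They do not say that each library is a separate animal, so the p-values reflect only how these samples vary, part of which may be technical.

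The sodium pump, or Na,K-ATPase, sits in the basolateral membrane of kidney tubule cells and moves sodium out of the cell and potassium into it, which drives sodium reabsorption along the nephron. Beside the catalytic subunit, the pump has a beta subunit that is needed for folding, assembly and delivery to the membrane. FXYD proteins join this complex and change its affinity for ions or its turnover in a tissue-specific way. Fxyd2 encodes the gamma subunit, abundant in the tubule and tied to magnesium handling. Fxyd4 encodes CHIF, the corticosteroid hormone-induced factor of the collecting duct. Fxyd5 encodes dysadherin, which also affects cell adhesion. In bulk tissue, fewer cells of a type and less RNA per cell cannot be told apart.

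The libraries held 31039867 to 39302246 gene-assigned reads, recovered from the normalized values. Tubule markers were abundant, with a summed normalized count of 6 proximal tubule genes of at least 262005 in every library. Of the genes read for nearby tissues, the adrenal gene Cyp11b1 was listed at 0 in all 24 libraries. Star, also listed for the adrenal, averaged between 160 and 220 per group. The fat genes Adipoq and Plin1 had a summed count from 6.64 to 829 over the libraries. The share of nearby tissue was not tested. A score of short against long transcripts, the median centred log2 level of 525 genes under 1000 bases minus that of 4732 genes over 4000 bases, separated the sexes. It ran from -0.34 to -0.11 in females and from 0.03 to 0.66 in males, with the highest value in male active replicate 2. Sex and this score cannot be told apart, and every sex difference below was measured across that gap.

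Transcripts of the beta subunit and the gamma subunit were far more abundant per kilobase of exon than those of Fxyd4 and Fxyd5. Normalized counts per kilobase over the union of exons averaged 20788 for Atp1b1, 11630 for Fxyd2, 479 for Fxyd4 and 80.6 for Fxyd5 over all 24 libraries. This order held in each of the 4 groups, where the ranges of neighbouring genes did not overlap except for those of Atp1b1 and Fxyd2 in active males. There Atp1b1 lay between 17371 and 20466 per kilobase and Fxyd2 between 12571 and 18760. The order of Atp1b1 and Fxyd2 depended on the length used: over the longest transcript, Fxyd2 averaged 27497 per kilobase and Atp1b1 averaged 24824. Fxyd4 stayed below both and above Fxyd5 with either length.

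**Figure D1:**
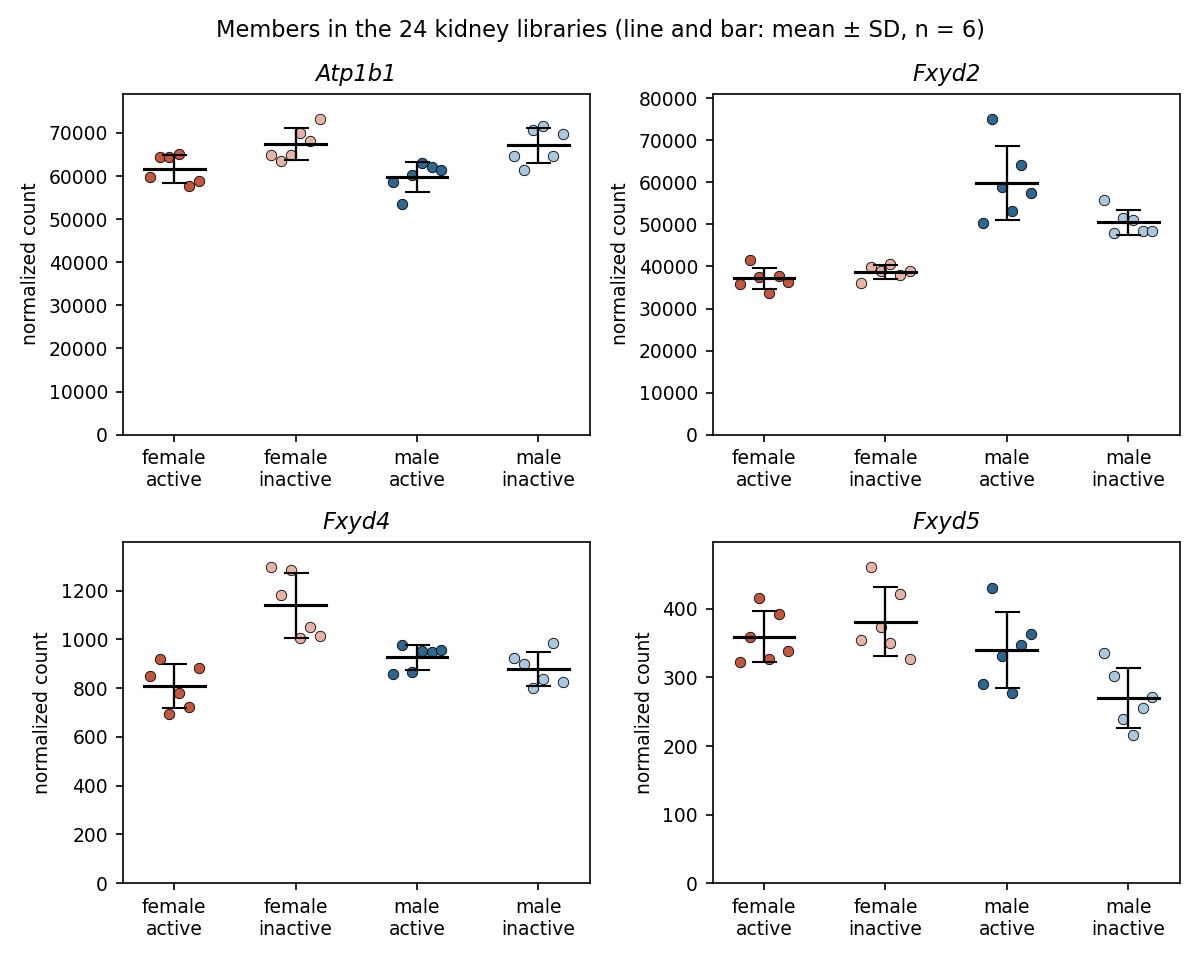
Normalized counts (y axis, from 0) of Atp1b1, Fxyd2, Fxyd4 and Fxyd5 in the 24 libraries, by group. Points are libraries, lines are group means and bars are 1 SD (n = 6); Fxyd2 lies higher in all male than in all female libraries, and Fxyd4 lies lower in all active than in all inactive female libraries.

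The plot of normalized counts by library shows a different pattern for each gene. In females, 1 of the 4 genes, Fxyd4, changed with period in limma, where 15.0% of the 17333 genes tested were called at an adjusted p under 0.05 (7.97% higher and 6.98% lower in the active period). In males 3 of the 4, Atp1b1, Fxyd2 and Fxyd5, were called, against 15.4% of all genes (8.43% higher and 6.95% lower). With only the 2 male groups in the fit, none of these 3 passed (limma, adjusted p = 0.0599, 0.0582 and 0.0901). The period change itself differed between the sexes for 1 of the 4, Fxyd4, against 2.71% of all genes (1.41% with the higher change in males, 1.30% with the lower). Between the sexes, 2 of the 4 were called in the active period, against 60.6% of all genes (30.1% higher and 30.5% lower in males). In the inactive period 3 of the 4 were called, against 55.7% (27.9% higher and 27.8% lower), so that a sex call on its own was the common outcome in these data.

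**Figure D2:**
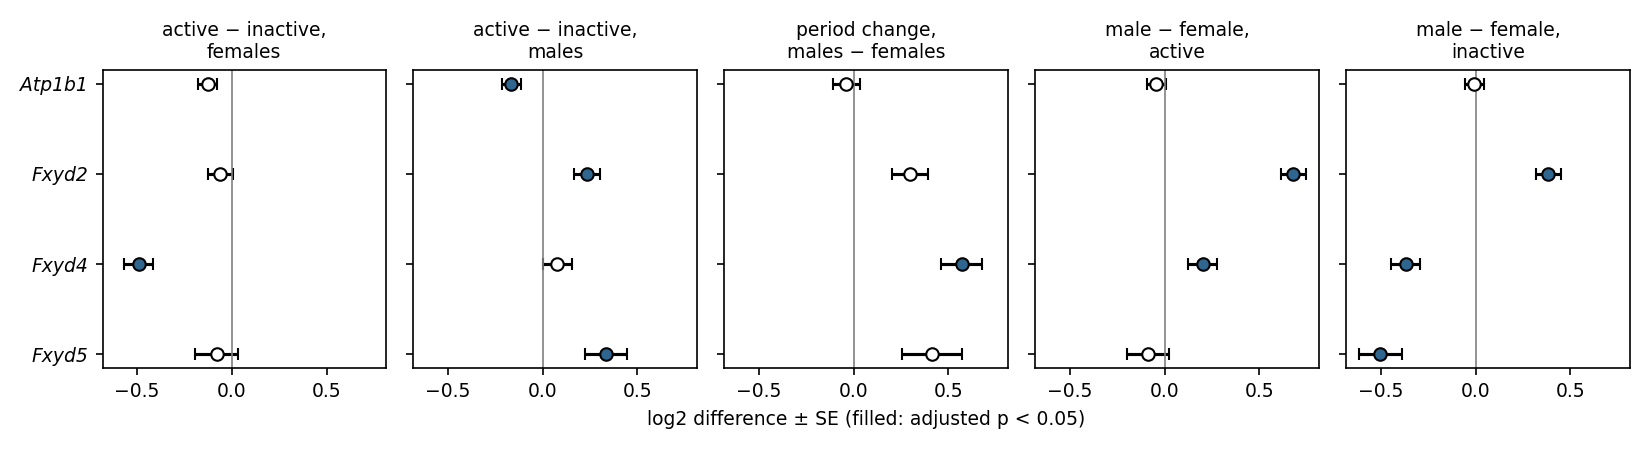
Log2 difference (x axis) with its standard error for each gene in the 5 comparisons, from limma on log2(normalized count + 1). Filled points have an adjusted p under 0.05; Fxyd4 has the lowest value for period in females (-0.49) and the highest for the difference between the sexes in the period change (0.57).

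Atp1b1 varied least of the 4 genes over all 24 libraries, with a root mean square of 0.107 (log2) around its mean, though not within every group. In active females its normalized count had a lowest value of 57809, a median of 62102 and a highest value of 65133. In inactive females these were 63420, 66570 and 73300. In males they were 53518, 60864 and 63054 in the active period and 61365, 67315 and 71621 in the inactive period. Group means were thus 61741 ± 3231 and 67448 ± 3763 in active and inactive females, and 59842 ± 3470 and 67157 ± 4105 in active and inactive males (SD, n = 6). Both sexes had the lower mean in the active period, with overlapping groups. In males Atp1b1 fell by 0.17 ± 0.05 (SE) on the log2 scale from the inactive to the active period (limma, adjusted p = 0.0242), a 1.12-fold difference. In females the log2 difference was -0.13 ± 0.05 and did not pass (limma, adjusted p = 0.0898). The male call was lost in 4 of the 24 refits that left out a library, namely male active replicate 2 or male inactive replicate 3, 4 or 6 (highest adjusted p 0.0656), and with the transcript score as a covariate, an alternative chosen after seeing the data, at -0.12 (limma, adjusted p = 0.176). The period change did not differ detectably between the sexes, at -0.04 ± 0.07 (limma, adjusted p = 0.813). Nor was a sex difference detected in the active period, at -0.05 ± 0.05 (limma, adjusted p = 0.452), or in the inactive period, at -0.01 ± 0.05 (limma, adjusted p = 0.919). Both became lower in males when libraries were scaled to equal totals, with log2 differences of -0.32 and -0.29, a scaling that moved the median of all genes to -0.32 in both sex comparisons. With the upper quartile, the active-period difference was -0.12 and passed (limma, adjusted p = 0.0344). Nme7 overlaps Atp1b1 on the opposite strand, and the sources used here give no strand setting for the counting. Nme7 averaged between 345 and 786 normalized counts per group.

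The Atp1b1 promoter is shown because it differs in base composition from those of the 2 FXYD genes that the table of promoters holds. It is the 250 bases before the start of Atp1b1 on the minus strand (chr1:164458356-164458605, GRCm38.p6, from RefSeq), with CG dinucleotides in capitals:
Atp1b1: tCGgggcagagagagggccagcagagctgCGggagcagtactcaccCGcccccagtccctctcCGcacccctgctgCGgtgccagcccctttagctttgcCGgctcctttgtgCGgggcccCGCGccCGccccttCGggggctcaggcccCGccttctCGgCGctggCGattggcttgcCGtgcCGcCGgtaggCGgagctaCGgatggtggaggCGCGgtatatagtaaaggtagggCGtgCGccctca
The window holds 24 CG dinucleotides and 70.4% G and C, against medians of 6 and 52.4% over 32851 promoters. The windows of Fxyd4 and Fxyd5 hold 3 each, with 58.0% and 55.6% G and C. None of the 3 windows held, on either strand, the E-box CACGTG, found in 6.02% of all promoters, or the D-box TTATGTAA, found in 0.819%. The same was true of the ROR element, found in 0.0426%, and of the full palindrome of the glucocorticoid response element, found in 0.00913%. At such low shares, 3 windows would rarely hold any of these motifs, so their absence says little about these genes.

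Fxyd2 was higher in males than in females in both periods, with no overlap of the groups. In females its normalized count had a lowest value of 33805, a median of 36989 and a highest value of 41526 in the active period, and 36082, 38940 and 40701 in the inactive period. In active males these were 50346, 58181 and 75136, and in inactive males 48074, 49813 and 55775. Every male library lay above every female library. Group means were 37157 ± 2588 and 38726 ± 1609 in active and inactive females, and 59872 ± 8843 and 50565 ± 2970 in active and inactive males (SD, n = 6). The difference was 1.61-fold in the active period, a log2 difference of 0.68 ± 0.07 (SE; limma, adjusted p = 4.62e-10), and 1.31-fold in the inactive period, at 0.38 ± 0.07 (limma, adjusted p = 1.46e-05). Groups were apart for 36.3% and 32.3% of all genes in these comparisons. Scaled to equal totals, the inactive-period difference was 0.10 (limma, adjusted p = 0.102). The summed count of the 6 proximal tubule markers was also higher in males with no overlap, at 434837 to 491174 against 262005 to 322342 in the active period and 447016 to 475212 against 294155 to 343332 in the inactive period. Of these 6 markers, 4 were higher and 2 lower in males in both periods. The sum of 4 distal convoluted tubule markers was lower in males with no overlap. It was 58308 to 63051 against 80702 to 100880 in the active period. In the inactive period it was 52293 to 64233 against 76954 to 98868. The sum of 5 thick ascending limb markers was lower in active males, at 67169 to 82496 against 95823 to 112950, and overlapped in the inactive period. The part of these cell types in the Fxyd2 difference was not tested.

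In males, Fxyd2 was 1.18-fold higher in the active period, with a log2 difference of 0.23 ± 0.07 (SE; limma, adjusted p = 0.0174). The male groups overlapped for this gene and for the other 3, and they were apart for 4.29% of all genes. In females the difference was -0.06 ± 0.07 (limma, adjusted p = 0.613). The 2 period changes differed by 0.29 ± 0.09, which did not pass (limma, adjusted p = 0.0817). The spread among active males was the widest for this gene, with a coefficient of variation of 14.8%, and the highest value, 75136, belonged to male active replicate 2. Without that library the male period difference was 0.17 (limma, adjusted p = 0.0531).

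**Figure D3:**
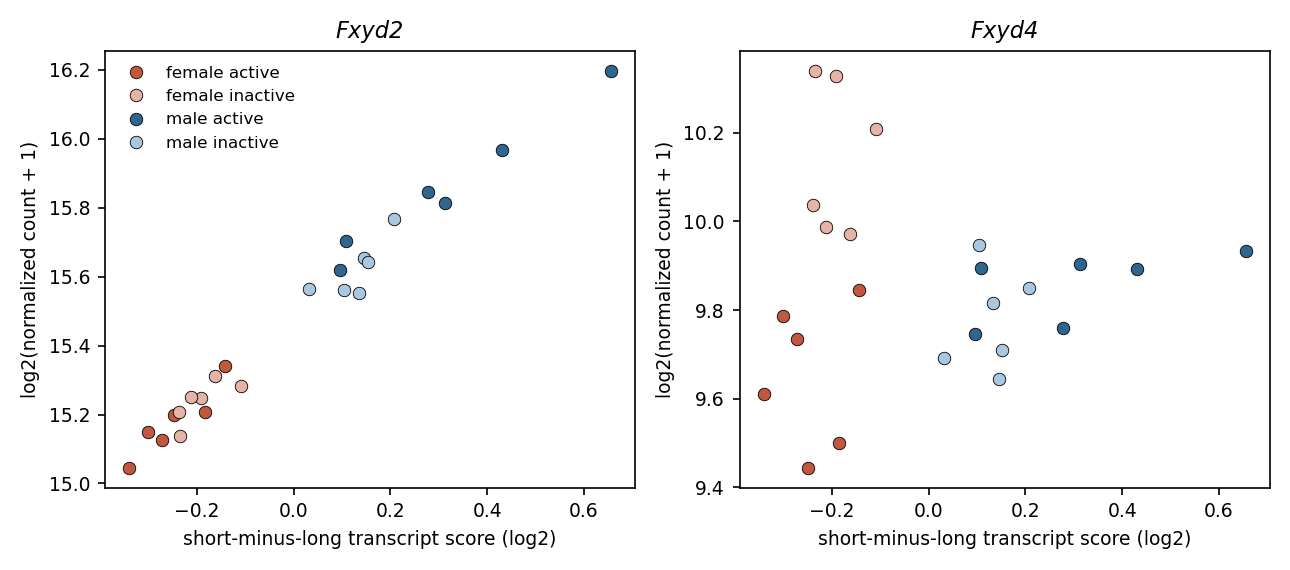
Score of short against long transcripts (x axis, log2) and log2(normalized count + 1) of Fxyd2 and Fxyd4 (y axes) in the 24 libraries, coloured by group. Fxyd2 rises with the score across and within groups (within-group r = 0.94), and Fxyd4 does not follow it (within-group r = 0.19).

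Fxyd2 moved closely with the score of short against long transcripts, as the plot of both genes against the score shows. After group means were removed, the correlation over 24 libraries was r = 0.94 and rho = 0.88. Each had a permutation p of 1e-05, the smallest that 100000 resamples within groups can give, and an adjusted p of 4e-05 over 4 relations. Without the 2 libraries farthest from the median of the score, r was 0.87. Short genes as a class had a median log2 difference of 0.17 between periods in males, against -0.02 for long genes, and of 0.40 and 0.24 between the sexes in the active and inactive period, against -0.15 and -0.08. The classes went by the longest transcript, which has 1694 bases for Fxyd2, so Fxyd2 was in neither class. Its principal transcript has 632 bases. The part of transcript length in the Fxyd2 differences was not tested. With the score as a covariate, an alternative chosen after seeing the data, the male period difference of Fxyd2 was 0.049 (limma, adjusted p = 0.470).

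Fxyd4 was the gene with the clearest period difference, and it had it in females. In active females its normalized count had a lowest value of 696, a median of 816 and a highest value of 919. In inactive females these were 1003, 1117 and 1295, so that the female groups did not overlap, as for 7.83% of all genes. In males they were 858, 950 and 976 in the active period and 800, 869 and 986 in the inactive period, with overlapping ranges. Group means were 809 ± 89.7 and 1139 ± 134 in active and inactive females, and 926 ± 50.8 and 879 ± 70.0 in active and inactive males (SD, n = 6). Inactive females were the high group, and the other 3 overlapped.

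In females Fxyd4 fell by 0.49 ± 0.08 (SE) on the log2 scale from the inactive to the active period, a 1.41-fold difference (limma, adjusted p = 2.71e-05). In males the difference was 0.08 ± 0.08 (limma, adjusted p = 0.529). The test of the difference between these changes passed, at 0.57 ± 0.11 (limma, adjusted p = 0.00497). Both calls passed in each of the 24 refits that left out a library, with ranges of -0.53 to -0.45 for the female change and 0.53 to 0.61 for the difference between the sexes. They also passed with the transcript score as a covariate. Between the sexes, Fxyd4 was 1.30-fold lower in inactive males than in inactive females, at -0.37 ± 0.08 (limma, adjusted p = 1.36e-04), with no overlap. In the active period it was higher in males by 0.20 ± 0.08 with overlapping groups (limma, adjusted p = 0.0236), a call that was lost with the upper quartile, at 0.13 (limma, adjusted p = 0.157), and turned to -0.074 when libraries were scaled to equal totals.

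Markers of the collecting duct principal cell, where Fxyd4 is known to be expressed, were read beside it. None of the 6 markers changed with period in females by limma or by edgeR and DESeq2 on recovered reads, and 1 had an unadjusted p under 0.05 in limma. In males 2 of the 6, Scnn1g and Hsd11b2, were higher in the active period. For the difference between the sexes in the period change, 1 of the 6, Hsd11b2, was called by limma and edgeR and 2 by DESeq2, and 3 had an unadjusted p under 0.05 in limma. The median of the 6 was 0.25 there, in the direction of Fxyd4, against 0.01 over all genes. For period in females it was -0.03: Aqp2, the vasopressin-regulated water channel, Aqp4 and Scnn1b had lower means in the active period, and Hsd11b2, Scnn1g and Avpr2 had higher ones. Aqp2 had a period difference of -0.46 ± 0.20 in females and 0.48 ± 0.20 in males, and neither passed (limma, adjusted p = 0.142 and 0.114). The summed normalized count of the 6 ran from 10568 to 14620 in active females and from 13141 to 16283 in inactive females, and from 10474 to 13198 in active males and from 8911 to 11127 in inactive males. The part of principal cell content in the Fxyd4 result was not tested.

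Fxyd5, the least abundant of the 4 per kilobase, was lower in inactive males. In active females its normalized count had a lowest value of 323, a median of 349.5 and a highest value of 416, and in inactive females 327, 364 and 461. In males these were 277, 339.8 and 430.1 in the active period and 216, 263 and 335 in the inactive period. Inactive males were the low group, with some overlap. Group means were 359.7 ± 37.7 and 381 ± 50.3 in active and inactive females and 340.2 ± 55.1 and 269.9 ± 43.4 in active and inactive males (SD, n = 6). The inactive-period sex difference was -0.50 ± 0.11 (SE), or 1.41-fold lower in males (limma, adjusted p = 3.48e-04), and it passed in all 24 refits that left out a library. In the active period it was -0.09 ± 0.11 (limma, adjusted p = 0.513).

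Across periods, Fxyd5 was 1.26-fold higher in active males, at 0.33 ± 0.11 (limma, adjusted p = 0.0417), with overlapping groups. In females the difference was -0.08 ± 0.11 (limma, adjusted p = 0.707), and the 2 changes differed by 0.41 ± 0.16, which did not pass (limma, adjusted p = 0.145). The male call was lost in 8 of 24 refits that left out a library and at 0.14 with the transcript score as a covariate (limma, adjusted p = 0.528). Within groups Fxyd5 followed the score with r = 0.63 and rho = 0.50 (permutation, adjusted p = 0.00356 and 0.049, n = 24), and r was 0.48 without the 2 libraries farthest from the median. All 4 endothelium markers were lower in males in both periods, where 30.5% and 27.8% of all genes were lower in the active and inactive period. Their summed normalized count ran from 8627 to 12600 in inactive females and from 4988 to 8419 in inactive males. In the inactive period 4 of 5 smooth muscle and fibroblast markers, 3 of 5 immune markers and 3 of 3 podocyte markers were also lower in males. So were 3 of 4 distal convoluted tubule, 4 of 6 principal cell and 3 of 5 intercalated cell markers. Fewer were lower among proximal tubule markers, 2 of 6, and thick ascending limb markers, 1 of 5. The summed smooth muscle and fibroblast count ran from 4693 to 6551 in inactive females and from 2876 to 4681 in inactive males, and 2 of these 5 markers were higher in active than in inactive males. The part of these cell types in the Fxyd5 differences was not tested.

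The 4 genes did not all vary together from library to library, though some pairs were related. Of the 6 pairs, after group means were removed over 24 libraries, Atp1b1 and Fxyd5 went in opposite directions, with r = -0.56 and rho = -0.57 (permutation, adjusted p = 0.0334 and 0.044), and r was -0.44 without the 2 farthest libraries. Fxyd2 and Fxyd5 had r = 0.56 and rho = 0.44 (permutation, adjusted p = 0.0334 and 0.116), and r was 0.33 without the 2 farthest libraries. Both also followed the transcript score within groups. No other pair passed.

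The plot of FXYD shares shows each gene relative to the beta subunit. Ratios of each FXYD gene to Atp1b1 within a library do not depend on how libraries are scaled. They were not tested with the transcript score as a covariate. Within groups that score had r = 0.94 with Fxyd2 and r = -0.37 with Atp1b1, where the latter did not pass (permutation, adjusted p = 0.147). Normalized counts of Fxyd2 as a share of those of Atp1b1 were 60.3% ± 4.9 and 57.5% ± 3.5 in active and inactive females, and 101% ± 20.6 and 75.5% ± 6.0 in active and inactive males (SD, n = 6). The male share was higher than the female share in both periods, with no overlap. The log2 differences were 0.72 and 0.39 (exact two-sided permutation test over 924 arrangements, adjusted p = 0.0130 over 12 tests for each; the smallest raw p was 0.00216). In males the Fxyd2 share was higher in the active period by 0.40 on the log2 scale (exact permutation, adjusted p = 0.0260), and in females the difference was 0.07 (exact permutation, adjusted p = 0.345). Fxyd4 came to 1.31% ± 0.16 in active and 1.70% ± 0.28 in inactive females, and to 1.55% ± 0.14 in active and 1.32% ± 0.17 in inactive males. Its share was lower in the active period in females, by -0.37, and higher in males, by 0.24 (exact permutation, adjusted p = 0.0334 and 0.0404), with overlapping groups. These 2 calls were lost in 6 and 12 of 24 analyses that left out a library. Fxyd5 came to 0.584% ± 0.067 and 0.569% ± 0.098 in active and inactive females and to 0.574% ± 0.125 and 0.406% ± 0.085 in active and inactive males. Its share was lower in inactive males than in inactive females by -0.50 (exact permutation, adjusted p = 0.0303).

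**Figure D4:**
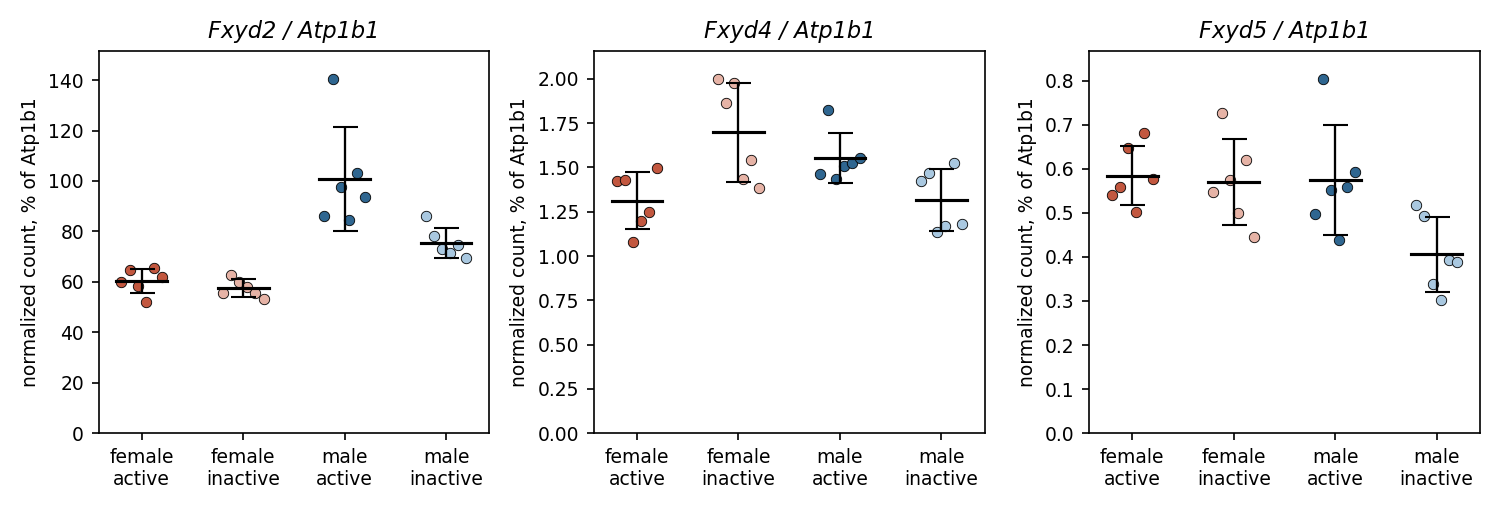
Normalized counts of Fxyd2, Fxyd4 and Fxyd5 as a percentage of those of Atp1b1 (y axes, from 0) in the 24 libraries, with group means and 1 SD (n = 6). The Fxyd2 share lies higher in all male than in all female libraries of the same period, and the shares of Fxyd4 and Fxyd5 overlap between groups.

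Of 7 other pump genes, 5 were tested and Atp1a4 and Fxyd7 were under the filter. None of the 5 was called by limma, edgeR or DESeq2 for period in either sex or for the difference between the sexes in the period change. In limma, 0 had an unadjusted p under 0.05 for period in females, 1 in males and 1 for that difference. Their median log2 difference was -0.16 for period in females and 0.12 in males, against 0.00 and 0.01 over all genes, and -0.10 and 0.16 for the 4 genes described above.

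Several less abundant pump genes were lower in males. In the active period 2 of the 5, Atp1b2 and Fxyd6, and in the inactive period 3 of the 5, Atp1b2, Fxyd1 and Fxyd3, passed as lower, and none as higher, where 30.5% and 27.8% of all genes were lower. By edgeR and by DESeq2, 1 of the 5, Atp1b2, was called in the active period. Atp1b2, a second beta subunit, averaged 398 normalized counts in inactive males and 689 in inactive females, a log2 difference of -0.80 ± 0.11 with no overlap (limma, adjusted p = 5.81e-07). Atp1b3, the third beta subunit, averaged between 3985 and 4289.6 normalized counts in the 4 groups and passed in no comparison. Fxyd1, or phospholemman, averaged 77.8 in inactive males and 106 in inactive females, with a difference of -0.48 ± 0.18 (limma, adjusted p = 0.0234). Fxyd3 averaged only 8.22 in inactive males and 17.2 in inactive females, close to the filter at a mean of 10, so its call rests on few reads.

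Of 11 partner and regulator genes of the pump, 7 were tested. In females 1 of the 7, Sgk1, was higher in the active period, a share close to the 15.0% of all genes called. It encodes an aldosterone-induced kinase that raises sodium transport, and it averaged 15255 against 6414 normalized counts with no overlap, a log2 difference of 1.27 ± 0.29 (limma, adjusted p = 0.00474). In males Sgk1 averaged 3802 and 3083, with a difference of 0.47 ± 0.29 (limma, adjusted p = 0.298). In males 3 of the 7 were higher in the active period, against 8.43% of all genes, namely Nkain1, which encodes a protein that binds the beta subunit, Pcbd1 and Nedd4l, and none was lower. Pcbd1, a transcriptional cofactor tied to Fxyd2 expression in the distal tubule, averaged 7251 in active and 6135 in inactive males and 4869 and 5382 in females. Its period change differed between the sexes by 0.38 ± 0.10 (limma, adjusted p = 0.0342). The longest transcript of Pcbd1 has 789 bases, so Pcbd1 is among the short genes of the transcript score. Its highest count, 8624, was in male active replicate 2, the library with the highest score. The part of transcript length in the Pcbd1 differences was not tested. In the inactive period Pcbd1 was also higher in males, by 0.19, and turned to -0.092 with libraries scaled to equal totals.

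Among 11 genes of apical sodium entry and basolateral potassium exit, which work in series with the pump, 2 rose and 2 fell with the active period in each sex, where 15.0% of all genes were called in females and 15.4% in males. The epithelial sodium channel subunit Scnn1a was higher in both, by 0.56 ± 0.06 in females and 0.41 ± 0.06 in males (limma, adjusted p = 1.82e-07 and 5.04e-05). The sodium-proton exchanger Slc9a3 was lower in both, by -0.45 ± 0.07 and -0.54 ± 0.07 (limma, adjusted p = 2.29e-05 and 3.37e-06). Kcnj10 rose and the phosphate transporter Slc34a1 fell in females, and Scnn1g rose and Kcnj16 fell in males. Between the sexes, 7 of the 11 were lower in males in both periods, against 30.5% and 27.8% of all genes in the active and inactive period, among them the thiazide-sensitive cotransporter Slc12a3, at -0.75 ± 0.06 and -0.70 ± 0.06 in the active and inactive period (limma, adjusted p = 1.36e-12 and 7.71e-12). Slc34a1 was higher in males, at 0.83 ± 0.06 and 0.47 ± 0.06 (limma, adjusted p = 1.02e-12 and 1.29e-07).

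The genes most like each of the 4 over the 24 libraries were ranked by the root mean square of the log2 difference between centred profiles, among 11471 candidates. For Fxyd2 these were Gapdh at 0.037, Cyc1 at 0.055 and Txn2 at 0.057, small beside its own root mean square of 0.301. Gapdh averaged 37020.0 and 37831 in active and inactive females and 60262 and 51053 in active and inactive males, which puts it beside Fxyd2 in every group. For Atp1b1 the nearest was Tor1aip2 at 0.068 against its own 0.107, followed by Cul4a and Wdr26. For Fxyd5 they were Tmsb4x at 0.124, Sparc at 0.135 and Selenow at 0.141, against 0.265. For Fxyd4 the nearest was Smg6, at 0.152 against its own 0.220, followed by Lzts3 and Trmt10a.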

How the data were processed

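Gene counts that the authors divided by 1 size factor per library were deposited as a table of signal values for 24 libraries, per the labels and the values. All nonzero values came back as whole reads within 0.05. Per the submitters' processing notes, the tools were featureCounts, Subread 2.0.6, DESeq2 1.28.1 and Trim Galore 0.6.10, with GRCm39 as the build. The sources used here give no roles, annotation, strand setting or aligner settings. Symbols and gene lengths came from a GRCm38 annotation, which named 52073 of 56748 identifiers. The main test was limma 3.58.1 (R 4.3.3) on log2(normalized count + 1) with a trended and robust variance prior, for 17333 genes with a mean of at least 10, over all 24 libraries with group as the only term (20 residual degrees of freedom). Benjamini-Hochberg adjustment ran over all tested genes in each of 5 comparisons, with a threshold of 0.05. Differences are active minus inactive and male minus female, on the log2(value + 1) scale. Ratios were tested by exact permutation. Alternatives included edgeR 4.0.16 and DESeq2 1.42.0 on recovered reads, other scalings, filters and pseudocounts, a block for the number in the library title and leaving out each library. The test procedure was tried on simulated data for period in females, with 50 changed genes of each size. It recovered 15 of 50 at 1.25-fold, 38 at 1.5-fold, 43 at 2-fold and 45 at 4-fold, with 13 false calls. Most changes of 1.25-fold were thus missed, so a gene that was not called can still hold one. Named genes were the 4 genes, the listed pump, partner and transport genes, the markers beside a result, and the 3 most like genes of each with a mean of at least 100. Some listed genes are not reported here. Members and lists were chosen with earlier results of these data known.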

Additional observations from a re-analysis of the deposited data

Results flagged for a closer look

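The period change differed between the sexes in the interaction test for 5 genes of the lists counted here, where 2.71% of all genes were called. These were 1 of the 4 genes, 0 of 5 other pump genes and 1 of 7 partner and regulator genes. The rest were 2 of 11 transport genes, 1 of 6 principal cell markers and 0 of 4 endothelium markers. Outside this count, 1 of 5 intercalated cell markers and 1 of 5 smooth muscle and fibroblast markers were also called. No distal convoluted tubule, podocyte or immune marker was. For Fxyd4 the male change exceeded the female change by 0.57 on the log2 scale (limma, adjusted p = 0.00497), with normalized counts of 809 and 1139 in active and inactive females and 926 and 879 in active and inactive males. The difference was 0.38 for Pcbd1 (limma, adjusted p = 0.0342), 0.30 for the principal cell marker Hsd11b2 (limma, adjusted p = 0.0249), 0.35 for Slc34a1 (limma, adjusted p = 0.0228) and -0.31 for Slc12a1, the sodium-potassium-chloride cotransporter of the thick ascending limb (limma, adjusted p = 0.0426). Pcbd1 is among the short genes of the transcript score. Slc34a1 averaged 67082 and 78677 in active and inactive females and 118356 and 109038 in active and inactive males. Slc12a1 averaged 45720 and 41441 in active and inactive females and 27150 and 30400 in active and inactive males. No library of the 4 groups stood apart in Atp1b1, Fxyd2, Fxyd4, Fxyd5 or the transcript score, in 20 tests of the highest and lowest value.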

How the results depend on the processing

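Of 320 values recomputed under alternatives other than leaving out a library, for the 4 genes, their counts, ratios and levels, 276 counted as unchanged. For differences and ratios this meant the same side of the threshold. A change of sign counted only where 1 of the 2 values passed. Counts of called genes and levels were allowed a small move. Adjusted p-values here are from limma unless another tool is named. With no filter on low values, Fxyd2 and Fxyd5 in males stood at 0.23 and 0.33 (adjusted p = 0.0566 and 0.0806) and 1 gene was called. With only the 2 groups compared, Atp1b1, Fxyd2 and Fxyd5 in males stood at -0.17, 0.23 and 0.33 (adjusted p = 0.0599, 0.0582 and 0.0901) and 0 were called, with all 3 at the same size as in the fit of all groups. Fxyd5 in males was 0.33 with a plain variance prior (adjusted p = 0.0553) and 0.31 with library weights (adjusted p = 0.0603), with which Atp1b1 in females was -0.13 (adjusted p = 0.0331) and 2 genes were called there. With the upper quartile, Atp1b1 in females was -0.15 (adjusted p = 0.0379; 2 called), Fxyd5 in males 0.31 and lost (adjusted p = 0.0608), and in the active-period sex comparison Atp1b1 was -0.12 and called (adjusted p = 0.0344) and Fxyd4 0.13 and lost (adjusted p = 0.157). With equal totals, Atp1b1 in females was -0.16 (2 called), Fxyd5 in males 0.30, the Fxyd2 difference between the sexes in the period change 0.30 (2 called), active-period sex differences -0.32 for Atp1b1, -0.074 for Fxyd4 and -0.36 for Fxyd5, and inactive ones -0.29 for Atp1b1 and 0.10 for Fxyd2. That scaling also turned the sex differences of Kcnj16 to -0.18 and -0.13 in the active and inactive period, and in the inactive period those of Pcbd1 to -0.092 and Slc9a3 to -0.041. Calls higher and lower in males split 5219 to 5290 in the active and 4844 to 4818 in the inactive period, 2635 to 8822 and 2051 to 9054 with equal totals, and 4430 to 6200 and 3963 to 5709 with the upper quartile. For period they split 1382 to 1210 in females and 1461 to 1204 in males, 1019 to 1570 and 1130 to 1458 with equal totals, and 1199 to 1415 and 1181 to 1521 with the upper quartile.

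DESeq2 put the Fxyd2 difference between the sexes in the period change at 0.30 (adjusted p = 0.0424; 2 called). Library titles carry a number that a female and a male library share, which is not the replicate number used above. Over these 12 pairs the correlation of deviations from group means ran from -0.104 to 0.124. Of the 12 female libraries, 4 correlated best with the male library of their own number, among those of the same period. These values cannot tell whether a shared number marks a shared batch. With a block for the title number, that Fxyd2 difference was 0.29 (adjusted p = 0.0323, 2 called). With the transcript score as a covariate, chosen after seeing the data, Atp1b1 was -0.14 in females (adjusted p = 0.0255; 2 called) and -0.12 in males (adjusted p = 0.176), Fxyd2 0.049 and Fxyd5 0.14 in males (0 called). Over all 17333 genes, that covariate changed the period calls from 2592 to 2999 in females and from 2665 to 1034 in males. Calls for the difference between the sexes in the period change went from 470 to 103. Per kilobase of the longest transcript, levels were 24824 for Atp1b1, 27497 for Fxyd2, 782 for Fxyd4 and 113 for Fxyd5. Over the principal transcript, a length chosen after seeing the data, they were 24824, 73702.5, 782 and 288. The cause of these shifts was not tested.

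Leaving out each library in turn, values ran for Atp1b1 in males from -0.19 to -0.13, for Fxyd2 in males from 0.17 to 0.28 and in the difference between the sexes from 0.23 to 0.34, for Fxyd5 in males from 0.26 to 0.40 and for Fxyd4 in the active-period sex comparison from 0.16 to 0.24 (lost without female active replicate 3 or 5). Called genes ran from 0 to 3 in males, from 1 to 2 for the difference between the sexes and from 1 to 2 for sex in the active period. Log2 ratios to Atp1b1 ran for Fxyd4 from -0.42 to -0.31 in females, 0.20 to 0.29 in males, 0.19 to 0.29 and -0.42 to -0.31 between the sexes in the active and inactive period, and for Fxyd5 from 0.40 to 0.58 in males and -0.57 to -0.42 between the sexes in the inactive period.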
